A study of Mus musculus with 27 samples.

Results

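The erythroid genes and the embryonic globin described here are 10 genes, chosen by symbol from the 24418 entries of an expression table: Gata1, Klf1, Gfi1b, Hemgn, Car1, Car2, Tfrc, Slc4a1, Alas2 and Hbb-bh1. Their levels were followed in haematopoietic stem and progenitor cells (HSPCs) purified from C57BL/6 mice and profiled by bulk RNA sequencing in 27 libraries, 3 for each of 9 groups. The embryonic groups were E12.5 PL, E12.5 FL and E16.5 FL, named by embryonic day and source, and the later groups were BM collected perinatally (Perinatal BM) and at 1, 3, 4, 6 and 8 weeks of age (1w BM to 8w BM). FL usually stands for fetal liver and BM for bone marrow, while the labels leave PL as an abbreviation. They name no treatment and no engineered allele, and the sources used here do not give the purification markers, the sex of the animals or the perinatal day. Nothing in the labels says that the 3 libraries of a group came from separate animals, so p-values measure the spread between these libraries, which may be technical. In bulk RNA, fewer cells of a type and less RNA per cell cannot be told apart. Comparisons of a BM group with an FL group change source and age together, so source and age cannot be told apart there.

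Red cells arise from HSPCs through erythroid progenitors, under transcription factors that include GATA1 and KLF1. GATA1 binds GATA motifs in DNA, and KLF1 binds CACCC-type motifs. Maturing erythroblasts take up iron through the transferrin receptor, make haem, fill with globin and build a specialised membrane in which the anion exchanger band 3 works together with carbonic anhydrase. The first, primitive red cells of the mouse embryo come from the yolk sac and make embryonic globins, whereas definitive red cells made later in the fetal liver and the bone marrow make adult globins.

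RefSeq promoter windows, from 250 bases before to 50 bases after an annotated start of a gene, were matched for 6 of the 10 genes (Gata1, Klf1, Gfi1b, Hemgn, Tfrc and Alas2). The 4 windows of the regulators are shown because some of these genes tended to be high or low in the same marrow libraries as Car1. Klf1 did so at both ends, Gata1 mainly at the high end and Gfi1b at the low end, whereas Hemgn did not. At the low end Gata1 did so no more often than Car2. Each is written 5′ to 3′ on the gene's strand in build GRCm38.p6. Capitals mark every match, on either strand, to a GATA motif (AGATAA, where the first letter may also be T and the last letter may also be G) or to a CACCC-type motif (CCNCNCCC).
Klf1 (chr8:84901732-84902031, plus strand): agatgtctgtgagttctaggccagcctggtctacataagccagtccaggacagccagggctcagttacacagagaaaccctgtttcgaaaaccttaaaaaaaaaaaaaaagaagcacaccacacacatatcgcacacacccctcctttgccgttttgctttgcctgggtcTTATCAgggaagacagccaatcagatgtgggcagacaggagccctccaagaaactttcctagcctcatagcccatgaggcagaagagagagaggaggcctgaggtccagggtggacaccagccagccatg
Gata1 (chrX:7967861-7968160, minus strand): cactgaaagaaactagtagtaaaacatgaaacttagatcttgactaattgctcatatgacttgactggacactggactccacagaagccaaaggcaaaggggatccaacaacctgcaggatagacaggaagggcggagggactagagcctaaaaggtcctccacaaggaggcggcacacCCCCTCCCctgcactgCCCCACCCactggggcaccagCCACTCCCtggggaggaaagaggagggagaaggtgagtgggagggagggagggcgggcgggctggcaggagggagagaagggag
Gfi1b (chr2:28621933-28622232, minus strand): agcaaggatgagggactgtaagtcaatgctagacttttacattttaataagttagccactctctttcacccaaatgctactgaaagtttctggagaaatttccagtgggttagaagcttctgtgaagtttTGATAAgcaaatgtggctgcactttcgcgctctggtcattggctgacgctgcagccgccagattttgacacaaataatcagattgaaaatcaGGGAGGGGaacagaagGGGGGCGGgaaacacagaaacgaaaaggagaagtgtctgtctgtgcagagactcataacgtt
Hemgn (chr4:46404134-46404433, minus strand): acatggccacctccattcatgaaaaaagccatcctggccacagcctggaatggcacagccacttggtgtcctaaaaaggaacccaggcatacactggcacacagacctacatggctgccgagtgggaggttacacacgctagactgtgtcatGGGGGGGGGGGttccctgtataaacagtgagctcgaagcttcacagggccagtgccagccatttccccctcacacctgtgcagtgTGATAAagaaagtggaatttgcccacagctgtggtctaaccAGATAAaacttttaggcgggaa
The Klf1 window held 1 GATA match, 80 bases before the start and on the opposite strand, and no CACCC-type match. The Gata1 window held 3 CACCC-type matches and no GATA match. That window lies inside the annotated span of the gene (chrX:7959260-7976663), not at its 5′ end. The Gfi1b window held 1 GATA and 2 CACCC-type matches, and the Hemgn window held 2 GATA matches and 4 overlapping CACCC-type matches within a run of G. Of the 6 genes matched, 4 had a GATA match and 5 a CACCC-type match. Tfrc had 2 windows, each with a CACCC-type match, and is counted as a single gene. Over all 32851 promoter windows of the same length, 29.8% held a GATA match, 49.5% a CACCC-type match and 10.2% both. These matches describe the letters of the windows and are no evidence of binding.

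Expression was deposited as FPKM, a fragment count scaled by transcript length and library total, which summed to between 519810 and 763033 per library, with 14241 to 16964 genes above 0. Read totals are not given. Low values fell on steps worth a single read, so the relative depth of the libraries could be estimated, and it ran from 0.687 to 1.62 times the median library. Known HSPC markers were expressed in all groups, but the E12.5 PL libraries stood apart. Ptprc, which encodes the pan-leucocyte antigen CD45, was at 11.1, 6.06 and 6.56 FPKM in E12.5 PL and at 67.9, 63.5 and 64.4 FPKM in E12.5 FL. The summed level of 18 trophoblast markers was 4874 to 5836 FPKM in E12.5 PL and 16.6 to 17.8 FPKM in E12.5 FL, where Hand1, Elf5 and Prl3d1 were at 0 in each library. Of the 14 trophoblast markers that were tested, 12 passed the filter only through E12.5 PL, so their count is not read as a result. Of 11 endothelial markers, 10 were higher and 1 lower, where 41% of all genes were called higher and 33.2% lower (summed level 1274 to 1600 FPKM in E12.5 PL and 299 to 325 FPKM in E12.5 FL). Cldn5, 1 of the 11 endothelial markers, passed the filter only through E12.5 PL, so the endothelial count is a description. The part of these other cell types in any difference of E12.5 PL was not tested.

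The filter for testing was 1 FPKM or more in no fewer than 3 libraries. Differences were tested on log2(FPKM + 1) with limma, and a gene was called at a Benjamini-Hochberg adjusted p under 0.05 over all 13350 genes tested. Of the 10 members, 9 passed that filter and Alas2 did not. Slc4a1 passed only through E16.5 FL and Hbb-bh1 only through the E12.5 groups, where each was high, so the counts that include them are descriptions. In E12.5 PL against E12.5 FL, 2 members were higher and 4 lower, beside 41% of all genes called higher and 33.2% called lower, with a median log2 difference of -0.48 over the 9 members and 0.06 over all genes. In E16.5 FL against E12.5 FL, 5 were higher and 2 lower, beside 19% and 15.6% of all genes (median 0.68, and 0.01 over all genes). In Perinatal BM against E16.5 FL, 2 were higher and 2 lower, with 14.2% of all genes called in each direction. In 1w BM against E16.5 FL, 2 were higher and 1 lower, beside 10.4% and 11.9% of all genes. In 8w BM against E16.5 FL, 5 were higher and 1 lower, beside 20.5% and 19.7% of all genes (median 0.34, and 0.00 over all genes). In 1w BM against Perinatal BM, 2 were higher and 0 lower, beside 8.6% and 8.97%. In 3w BM against 1w BM, limma called 0 members in either direction, beside 5.69% of all genes higher and 4.76% lower, and no member had an unadjusted p under 0.05. In 8w BM against 1w BM, 2 were higher and 0 lower, beside 10.3% and 8.39%. Comparisons that share a group (E12.5 FL, E16.5 FL or 1w BM) are not independent of each other.

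The 10 genes did not move as a block. Car1 rose in the marrow to levels far above those of the embryonic groups, Gata1 rose with it by a smaller factor, and Slc4a1, the band 3 gene of the red cell membrane, was higher in E16.5 FL than in E12.5 FL and close to 0 throughout the marrow. Hbb-bh1 was listed at 0 in most libraries, and Tfrc changed little after E16.5. The plots of each library show these patterns and those of the other members.

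**Figure D1:**
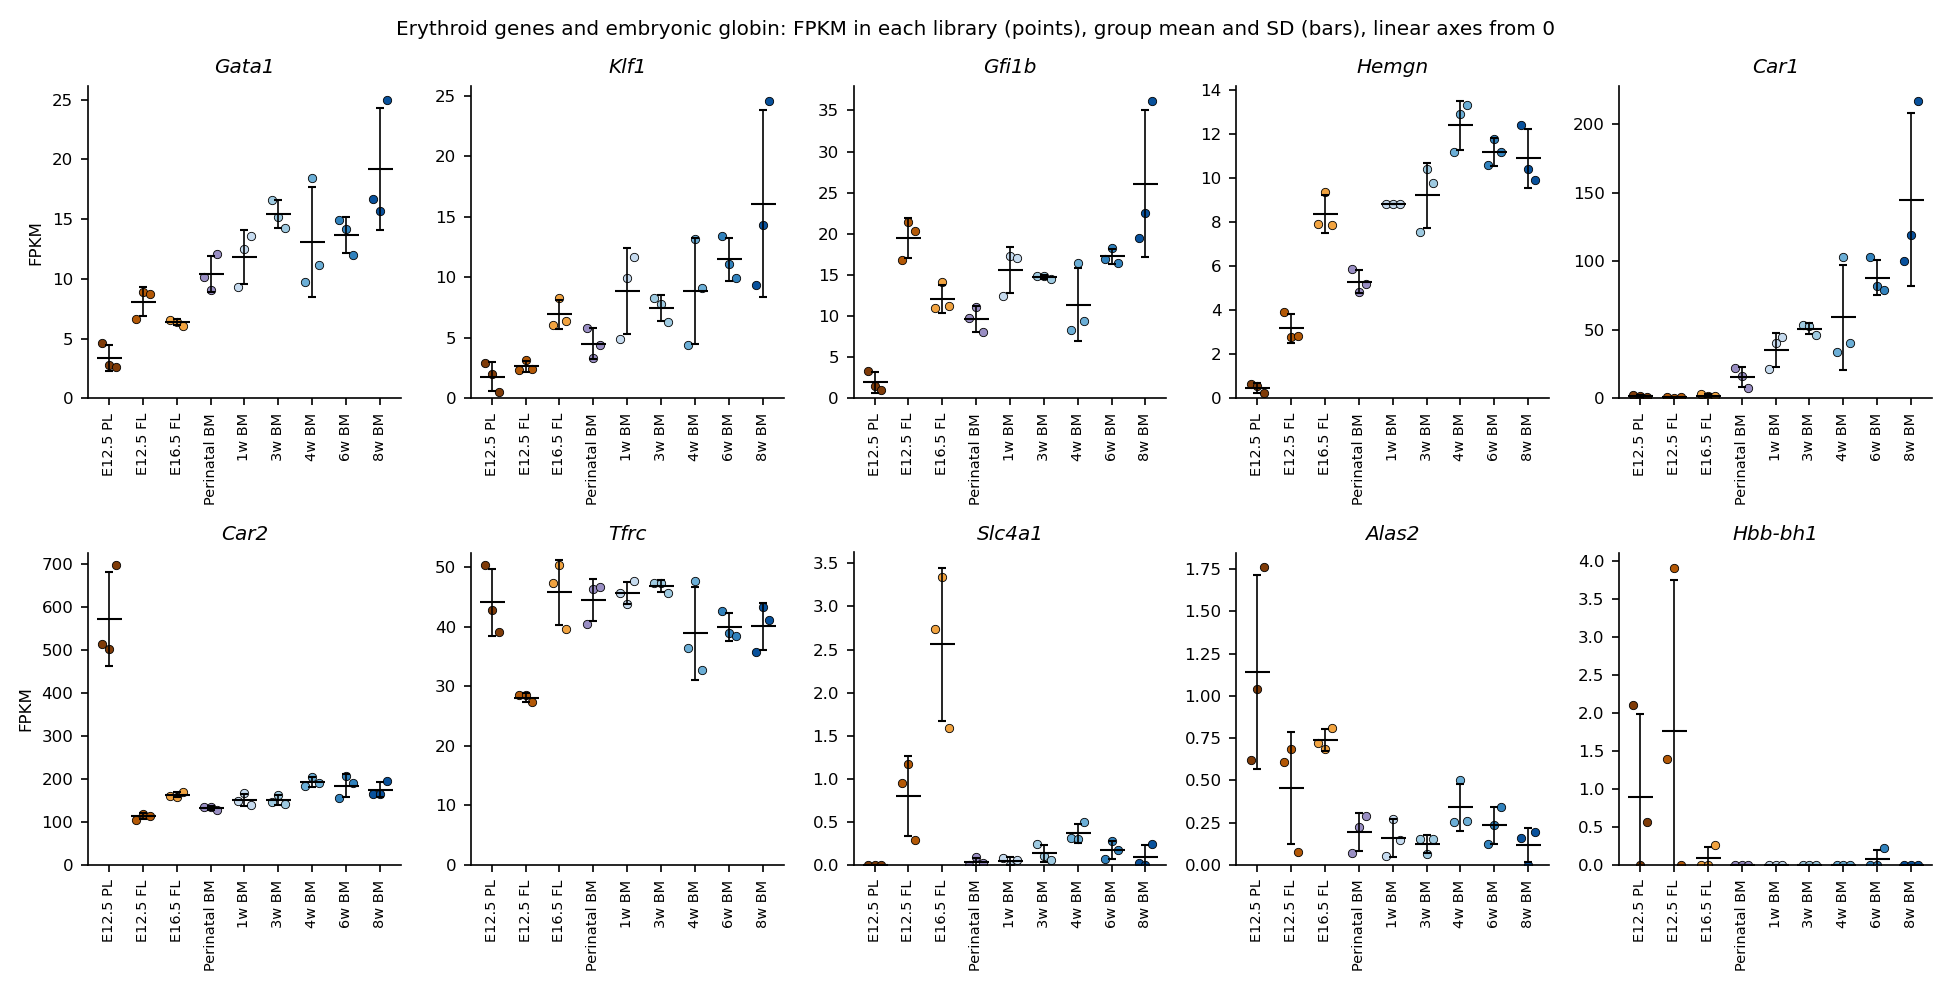
FPKM of the 10 genes in each of the 27 libraries, on linear axes that start at 0 and differ between panels. Points are libraries, and bars give the mean and SD of the 3 libraries of a group. Car1 reaches 217 FPKM in 8w BM, Slc4a1 peaks at 3.34 FPKM in E16.5 FL, and Car2 stands at 504 to 698 FPKM in E12.5 PL.

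Gata1 encodes the master transcription factor of erythroid, megakaryocytic and mast cell differentiation. It was at 4.67, 2.82 and 2.64 FPKM in E12.5 PL and at 6.68, 8.92 and 8.71 FPKM in E12.5 FL, with no overlap, and the log2 difference was -1.08 ± 0.20 (SE, adjusted p = 4.67e-05). In E16.5 FL it was at 6.6, 6.37 and 6.1 FPKM, which was not called different from E12.5 FL (log2 difference -0.30 ± 0.20, adjusted p = 0.27).

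Each marrow library had more Gata1 than any E16.5 FL library. It was at 10.2, 9.06 and 12.1 FPKM in Perinatal BM, at 9.29 to 13.6 FPKM in 1w BM and at 16.7, 15.7 and 25 FPKM in 8w BM. Against E16.5 FL the log2 difference was 0.63 ± 0.20 in Perinatal BM (adjusted p = 0.0223), 0.78 ± 0.20 in 1w BM (adjusted p = 0.00657) and 1.43 ± 0.20 in 8w BM (adjusted p = 6.22e-06). The Perinatal BM call was lost when E16.5 FL library 2 or 3 or Perinatal BM library 1 or 3 was left out (adjusted p 0.0505 to 0.0844). Within the marrow, 8w BM was above 1w BM by 0.64 ± 0.20 (adjusted p = 0.0281), but not without 8w BM library 3 (0.44, adjusted p = 0.182) or without 1w BM library 1 (0.49, adjusted p = 0.145), nor in a fit of those 6 libraries alone (adjusted p = 0.104). The order of group means was E12.5 PL, E16.5 FL, E12.5 FL, Perinatal BM, 1w BM, 4w BM, 6w BM, 3w BM and 8w BM, from 3.38 to 19.2 FPKM. The 3 lowest steps of this order separated libraries without overlap, and the 5 steps within the marrow did not. A moderated F-test over the groups from 1w to 8w BM did not call Gata1 (adjusted p = 0.0877).

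Perinatal BM also carried a mast cell signal. All 12 mast cell markers were higher there than in E16.5 FL, beside 14.2% of all genes (2 of them, Tpsab1 and Mrgprb1, passed the filter only through Perinatal BM), with a summed level of 1693 to 4284 FPKM in Perinatal BM and 134 to 163 FPKM in E16.5 FL. Kit, one of these markers and expressed in every group, made up most of the E16.5 FL sum, at 102, 109 and 139 FPKM. Tpsab1, Fcer1a and Mrgprb1 were at 0 in 2 of the 3 E16.5 FL libraries. Perinatal BM library 2, with the lowest mast cell sum of its group, was also the lowest of its group in Gata1 (9.06 FPKM). The part of the mast cell signal in the perinatal differences was not tested. In 8w BM, where the log2 difference of Gata1 from E16.5 FL was 1.43, the mast cell sum was 166 to 192 FPKM. Of that sum, Kit alone was 124 to 130 FPKM, so the sum says little about the other markers. Of the 12 mast cell markers, 5 were higher and 3 lower in 8w BM against E16.5 FL, beside 20.5% and 19.7% of all genes. The part of these markers in that Gata1 difference was not tested.

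Klf1 encodes an erythroid zinc finger activator of adult beta globin and of many other red cell genes. It was at 2.92, 1.99 and 0.504 FPKM in E12.5 PL and at 2.32, 3.17 and 2.47 FPKM in E12.5 FL, which overlapped (log2 difference -0.48 ± 0.35, adjusted p = 0.226). In E16.5 FL it was at 6.1, 8.3 and 6.42 FPKM, with no overlap with E12.5 FL and a log2 difference of 1.12 ± 0.35 (adjusted p = 0.018). That call was lost without E12.5 FL library 1 (adjusted p = 0.0561) or 3 (adjusted p = 0.0512), or without E16.5 FL library 2 (adjusted p = 0.0656), while the difference stayed between 1 and 1.08.

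Perinatal BM, with 5.84, 3.31 and 4.44 FPKM, lay below all 3 E16.5 FL libraries, although the Klf1 difference was not called (log2 difference -0.54 ± 0.35, adjusted p = 0.28). At 8 weeks Klf1 was at 9.36, 14.3 and 24.6 FPKM, above the E16.5 FL libraries by 1.02 ± 0.35 (adjusted p = 0.0258). Library 3 carried much of that difference: without it the log2 difference was 0.67 (adjusted p = 0.17), and the call was also lost without E16.5 FL library 1 (adjusted p = 0.0803) or 3 (adjusted p = 0.0655) with a pseudocount of 0.1 (adjusted p = 0.06) and in a fit of those 6 libraries alone (adjusted p = 0.0663).

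Gfi1b encodes a zinc finger repressor required for erythroid and megakaryocytic development. It was at 3.33, 1.55 and 0.973 FPKM in E12.5 PL and at 16.8, 21.4 and 20.4 FPKM in E12.5 FL, a log2 difference of -2.87 ± 0.24 (adjusted p = 2.66e-10) with no overlap. In E16.5 FL it was at 11, 14.1 and 11.2 FPKM, below all E12.5 FL libraries, with a log2 difference of -0.64 ± 0.24 (adjusted p = 0.0449). That fetal liver difference kept its sign but lost its call in 6 of the alternatives, with adjusted p between 0.0754 and 0.131. In 8w BM the libraries were at 19.5, 22.5 and 36.2 FPKM, all above E16.5 FL (log2 difference 1.00 ± 0.24, adjusted p = 0.00221). Against 1w BM, at 12.4, 17.3 and 17.1 FPKM, the 8w BM libraries were also higher without overlap, but the difference was not called (0.67 ± 0.24, adjusted p = 0.0599). It was called in the fit without E12.5 PL (adjusted p = 0.0215) and without 8w BM library 1 (0.85, adjusted p = 0.0351). The highest group means of Gfi1b were thus those of 8w BM (26.1 FPKM) and E12.5 FL (19.5 FPKM), whose libraries overlapped, and the lowest outside E12.5 PL was that of Perinatal BM (9.66 FPKM).

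Hemgn encodes hemogen, a nuclear protein of haematopoietic and erythroid progenitors. It was at 0.671, 0.559 and 0.237 FPKM in E12.5 PL and at 3.93, 2.79 and 2.82 FPKM in E12.5 FL, with no overlap (log2 difference -1.49 ± 0.13, adjusted p = 3.95e-10). The 1w BM libraries, at 8.85, 8.82 and 8.81 FPKM, were close to E16.5 FL, at 7.92, 9.37 and 7.86 FPKM (log2 difference 0.07 ± 0.13, adjusted p = 0.777). They were above Perinatal BM, at 5.87, 4.82 and 5.21 FPKM, by 0.64 ± 0.13 (adjusted p = 0.00154) with no overlap. The perinatal group was therefore below both E16.5 FL and 1w BM, with a log2 difference of -0.57 ± 0.13 from E16.5 FL (adjusted p = 0.00198). The 8w BM libraries, at 12.4, 10.4 and 9.92 FPKM, were above E16.5 FL by 0.34 ± 0.13 (adjusted p = 0.0399). That 8w BM call was lost when E16.5 FL library 1 (adjusted p = 0.119) or 3 (adjusted p = 0.117), or 8w BM library 1 (adjusted p = 0.183) or 2 (adjusted p = 0.0571), was left out. It was also lost with a pseudocount of 0.1 (adjusted p = 0.164), with no filter (adjusted p = 0.0567) and in a fit of those 6 libraries alone (adjusted p = 0.065).

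**Figure D2:**
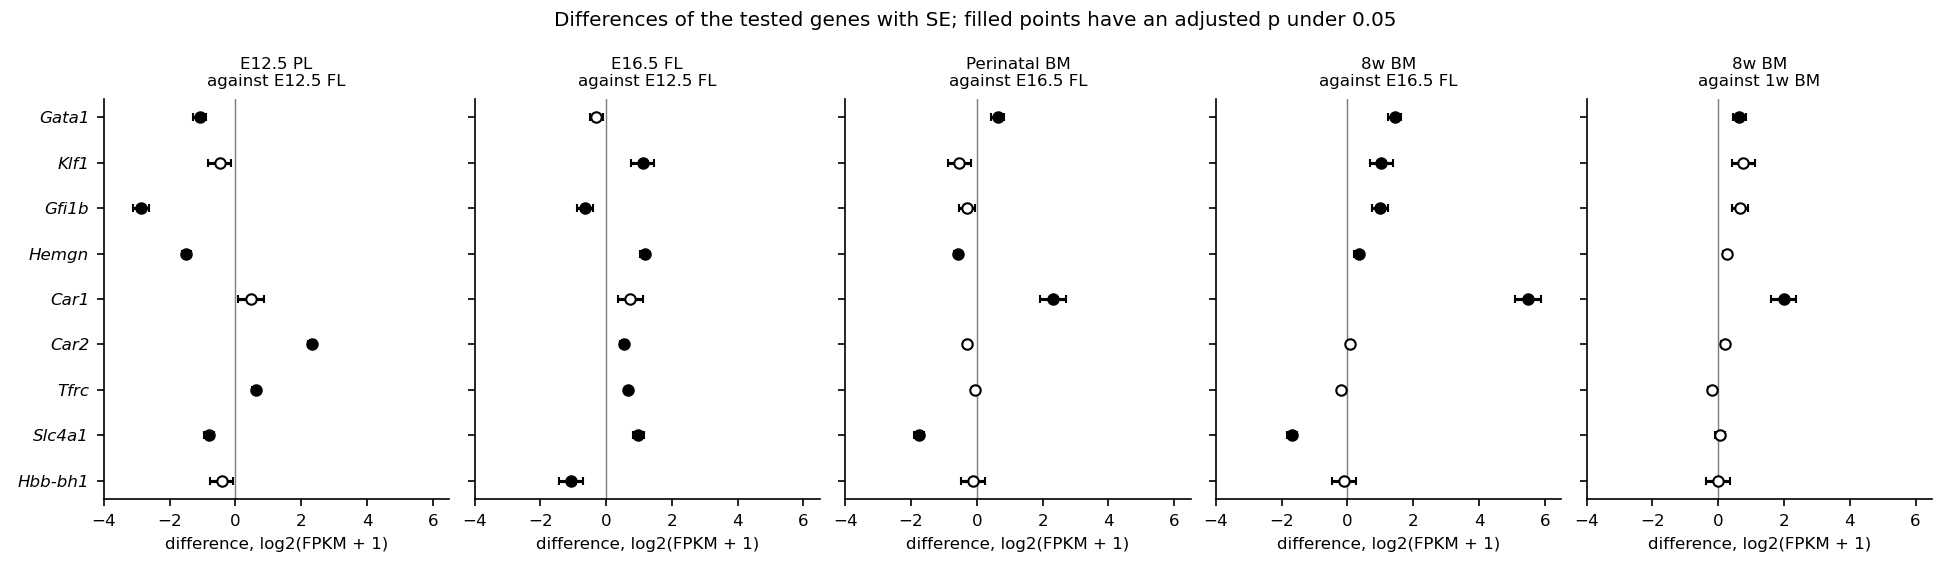
Log2 differences of the 9 tested genes, the group named first minus the other, in 5 comparisons on the log2(FPKM + 1) scale. Bars are SE, filled points have an adjusted p under 0.05 and open points do not. Car1 lies at 5.49 in 8w BM against E16.5 FL, while Slc4a1 lies at -1.68 in the same comparison.

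The list of 19 erythroid regulators, which includes these 4 genes, was described by counts. In E12.5 PL against E12.5 FL, 1 was higher and 16 lower (median log2 difference -1.78, beside 0.06 over all genes tested), where 41% and 33.2% of all genes were called. The haematopoietic factor Bcl11a was at 5.74 ± 1.08 FPKM in E12.5 PL and 72 ± 3.43 FPKM in E12.5 FL (SD, n = 3 each; adjusted p = 9.99e-19), whereas Gata2, the stem cell GATA factor, was the higher one at 73.8 ± 8.56 FPKM in E12.5 PL and 44.4 ± 3.12 FPKM in E12.5 FL (adjusted p = 9.26e-06). In 8w BM against E16.5 FL, 12 regulators were higher and 3 lower (median 0.42, beside 0.00), where 20.5% and 19.7% of all genes were called, and leaving out libraries in turn gave 9 to 11 higher and 1 to 2 lower. Gata2 averaged 83.8 ± 17.8 FPKM in 8w BM and 39.3 ± 2.81 FPKM in E16.5 FL (log2 difference 1.06, adjusted p = 2.41e-07). Sox6, a repressor of embryonic globin in the mouse, averaged 2.31 ± 0.182 FPKM in 8w BM and 0.512 ± 0.0592 FPKM in E16.5 FL (log2 difference 1.13, adjusted p = 4.17e-07). Tal1, which works in a complex with GATA1, and Nfe2, an activator of globin genes, were also called higher in 8w BM, while Gfi1, the paralogue of Gfi1b that favours granulocytes, was lower at 16.3 ± 0.704 FPKM in 8w BM and 26.7 ± 3.08 FPKM in E16.5 FL (adjusted p = 0.000303).

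Car1 encodes carbonic anhydrase 1, a cytosolic enzyme abundant in definitive red cells. It was low in the embryonic groups, at 2.69, 1.53 and 0.787 FPKM in E12.5 PL, 1.01, 0.626 and 0.912 FPKM in E12.5 FL and 3.24, 1.51 and 1.74 FPKM in E16.5 FL. In the marrow it was at 7.58 to 22.4 FPKM perinatally, at 21.2, 40.1 and 45.1 FPKM at 1 week, at 53.8, 52.6 and 46.1 FPKM at 3 weeks, at 34.1, 103 and 40.1 FPKM at 4 weeks, at 103, 82.1 and 79 FPKM at 6 weeks and at 100, 119 and 217 FPKM at 8 weeks. The lowest marrow library thus lay above the highest embryonic library.

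Against E16.5 FL, the log2 difference of Car1 was 2.31 ± 0.39 in Perinatal BM (adjusted p = 0.000122), 3.50 ± 0.39 in 1w BM (adjusted p = 9.55e-07) and 5.49 ± 0.39 in 8w BM (adjusted p = 2.09e-10). The last of these is a factor of 44.9 on the log2(FPKM + 1) scale, which understates the change of genes near 1 FPKM. Within the marrow, 8w BM was above 1w BM by 1.99 ± 0.39 (adjusted p = 0.000819) without overlap. The step of 1w BM over Perinatal BM was smaller and its libraries overlapped (1.19 ± 0.39, adjusted p = 0.0357), and it lost its call in 7 of the alternatives, among them leaving out Perinatal BM library 3 (0.78, adjusted p = 0.184). A moderated F-test over 1w, 3w, 4w, 6w and 8w BM also called Car1 (adjusted p = 0.0031), and it called 4 of the 9 members, beside 33.9% of all genes. In E16.5 FL against E12.5 FL, Car1 was apart but not called (0.74 ± 0.39, adjusted p = 0.145), and it was called with a pseudocount of 0.1 (1.20, adjusted p = 0.04) and in a fit of those 6 libraries alone (adjusted p = 0.0406). In the order of means, 2 of the 8 neighbouring pairs were apart, Perinatal BM over E16.5 FL and 3w BM over 1w BM.

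Car2 encodes carbonic anhydrase 2, the widely expressed high-activity enzyme, and lies 77.9 kb from Car1 on chromosome 3. Across the groups its level did not follow that of Car1. It was at 515, 504 and 698 FPKM in E12.5 PL and at 105, 119 and 114 FPKM in E12.5 FL, a log2 difference of 2.32 ± 0.11 (adjusted p = 5.67e-15), the opposite of the direction of Gata1, Gfi1b and Hemgn. The E16.5 FL libraries, at 161, 159 and 170 FPKM, were above E12.5 FL by 0.53 ± 0.11 (adjusted p = 0.000785). Perinatal BM, at 136, 136 and 129 FPKM, lay below E16.5 FL without overlap (-0.29 ± 0.11, adjusted p = 0.0523), and 5 of the alternatives called that difference. The 8w BM libraries, at 165, 165 and 195 FPKM, were not called different from E16.5 FL (0.09 ± 0.11, adjusted p = 0.549).

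Car1 FPKM as a percent of Car2 FPKM followed from these values. It was 0.313 ± 0.204% in E12.5 PL, 0.761 ± 0.218% in E12.5 FL and 1.33 ± 0.597% in E16.5 FL (SD, n = 3 each). In the marrow it was 11.5 ± 5.34% perinatally and 23.5 ± 9.05% at 1 week, and it reached 49.1 ± 14.9% at 6 weeks and 81.3 ± 26.5% at 8 weeks. In 8w BM library 3 Car1 exceeded Car2, with a share of 111%, whereas in the other 8w BM libraries it was 60.8% and 71.9%.

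**Figure D3:**
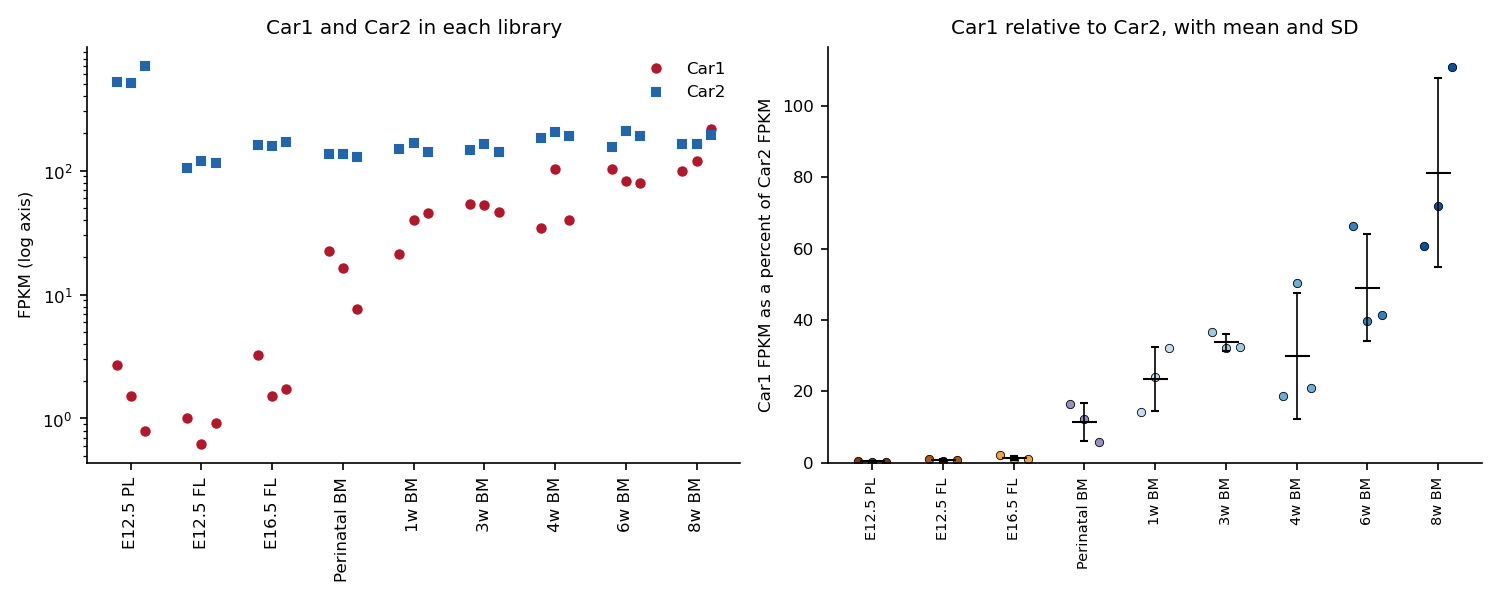
Car1 and Car2 in each library on a log FPKM axis (left), and Car1 as a percent of Car2 with group mean and SD on a linear axis from 0 (right). Car1 averages 81.3% of Car2 in 8w BM, against 11.5% in Perinatal BM, while Car2 stays between 129 and 207 FPKM in the marrow.

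Among the 11 carbonic anhydrase genes tested, 4 were higher and 0 lower in 8w BM against E16.5 FL, beside 20.5% and 19.7% of all genes. Besides Car1 these were Car3 (4.56 ± 0.896 FPKM in 8w BM and 1.56 ± 0.463 FPKM in E16.5 FL), Car13 (4.86 ± 0.318 FPKM in 8w BM and 2.9 ± 0.258 FPKM in E16.5 FL) and Car12 (2.68 ± 0.424 FPKM in 8w BM and 1.33 ± 0.0962 FPKM in E16.5 FL). In E12.5 PL against E12.5 FL, 4 were higher and 4 lower, shares close to the 41% and 33.2% of all genes, and 3 of the 11 passed the filter only through E12.5 PL. Car4, a membrane-bound form, was at 9.18 ± 1.27 FPKM in E12.5 PL and listed at 0 in all 3 E12.5 FL libraries.

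Car1 and Klf1, with Gata1 mainly at the high end and Gfi1b at the low end, tended to be high or low in the same libraries of a marrow group. The library with the highest Car1 of its group also had the highest Klf1 in 6 of the 6 marrow groups, the highest Gata1 in 5 and the highest Gfi1b in 3, as many as for Car2, Tfrc and Alas2. The library with the lowest Car1 had the lowest Gfi1b in 6 of the 6 groups, the lowest Klf1 in 5, and the lowest Gata1 and the lowest Car2 in 4 each. For Hemgn the highest and the lowest library were the same in 1 of the 6 groups each. No share over all genes is given for these counts, so they are descriptions. 4w BM library 2 stood out, with 103 FPKM of Car1, 13.2 of Klf1, and 18.4 of Gata1, where the other 4w BM libraries had at most 40.1, 9.14 and 11.2 FPKM of these genes. 8w BM library 3 stood out in the same way, with 217 FPKM of Car1, 24.6 of Klf1, 25 of Gata1 and 36.2 of Gfi1b.

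Some other red cell genes were high in the same libraries, but not all. Hemgn, at 9.92 FPKM, and Trim58, a late erythroid gene at 5.71 FPKM, were not the highest of their group in 8w BM library 3. Aqp1, a water channel of the red cell membrane, was at 66.9 FPKM in 8w BM library 3, against 32.1 and 37.6 FPKM in the other 8w BM libraries, and at 40.3 FPKM in 4w BM library 2, against 17.8 and 20.5 FPKM. Ermap, a gene of an erythroid membrane protein, was at 15.9 FPKM in 8w BM library 3, against 7.05 and 8.7 FPKM. Globin did not share this pattern: the summed adult beta globins were lowest in those same libraries, at 9.71 FPKM in 8w BM library 3 (16.3 and 14 FPKM in the others) and at 22.3 FPKM in 4w BM library 2 (37.5 and 41.3 FPKM in the others). The summed macrophage markers were also lowest in 8w BM library 3, at 150 FPKM against 238 and 230 FPKM. The relative depth of 4w BM library 2 was the lowest of all 27 libraries, at 0.687, and that of 8w BM library 3 was 1.18. Some mast cell markers were high in the same libraries too. In 4w BM library 2, Cpa3 was at 44.9 FPKM (20.1 and 17.8 in the others) and Ms4a2 at 5.46 FPKM (1.15 and 1.37). In 8w BM library 3, Cpa3 was at 30 FPKM (26.6 and 21.5) and Ms4a2 at 5.2 FPKM (3.76 and 2.07). Kit, by contrast, was lowest of its group in 4w BM library 2, at 139 FPKM (147 and 142). The part of depth and of the macrophage and mast cell levels in the Car1 pattern was not tested.

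**Figure D4:**
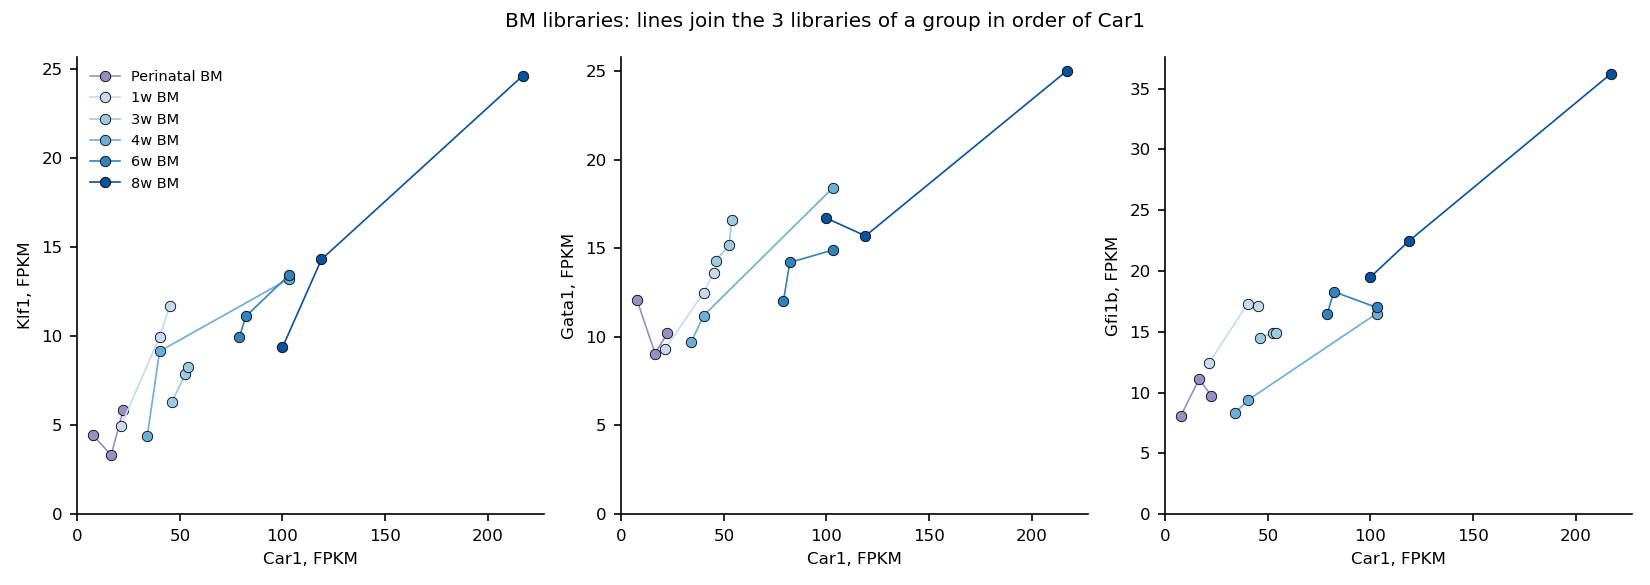
Klf1, Gata1 and Gfi1b against Car1 in the 18 marrow libraries, in FPKM on linear axes from 0. Points are libraries, coloured by group, and lines join the 3 libraries of a group in order of Car1. 8w BM library 3, at 217 FPKM of Car1, is highest in each panel.

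Markers of other marrow lineages moved with age as well. In 8w BM against 1w BM, 12 of 12 macrophage markers were higher (summed level 150 to 238 FPKM in 8w BM and 45.5 to 59.6 FPKM in 1w BM), and 10 of 14 megakaryocyte markers were higher and 2 lower (summed level 225 to 234 FPKM in 8w BM and 135 to 146 FPKM in 1w BM), beside 10.3% of all genes higher and 8.39% lower. Spic, 1 of the 12 macrophage markers, passed the filter only through 8w BM, so the macrophage count is a description. Itga2b, the platelet integrin gene, was at 58.3 ± 4.93 FPKM in 8w BM and 14.9 ± 1.68 FPKM in 1w BM (adjusted p = 1.52e-06). Gata1 and Gfi1b are expressed in megakaryocytes too. The part of these lineages in the differences of Gata1 and Car1 was not tested.

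Tfrc encodes the transferrin receptor, through which erythroblasts and other dividing cells take up iron. It was at 50.3, 42.8 and 39.2 FPKM in E12.5 PL and at 28.5, 28.5 and 27.3 FPKM in E12.5 FL (log2 difference 0.62 ± 0.11, adjusted p = 2.45e-05). In E16.5 FL it was at 47.4, 50.3 and 39.7 FPKM, above E12.5 FL without overlap (0.68 ± 0.11, adjusted p = 7.39e-05). After that it ranged from 32.7 FPKM in a 4w BM library to 47.7 FPKM in another, and no comparison of the marrow groups with E16.5 FL or with each other called it. E12.5 FL was thus the only group whose 3 libraries lay below all libraries of the other 8 groups for this gene.

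Tfr2, the other transferrin receptor, expressed mainly in liver and erythroid cells, moved more than Tfrc. It averaged 1.26 ± 0.532 FPKM in E12.5 PL and 4.27 ± 0.347 FPKM in E12.5 FL (log2 difference -1.25, adjusted p = 1.65e-08), opposite in direction to Tfrc. It was 13.4 ± 0.8 FPKM in E16.5 FL (1.45 above E12.5 FL, adjusted p = 5.83e-08) and 35.2 ± 2.75 FPKM in 8w BM (1.32 above E16.5 FL, adjusted p = 6.34e-08). Of the 12 iron genes, 7 were higher and 0 lower in E16.5 FL against E12.5 FL (median 0.29, beside 0.01 over all genes tested), and 5 were higher and 1 lower in 8w BM against E16.5 FL (median 0.27, beside 0.00). All genes were called at 19% higher and 15.6% lower in the fetal liver comparison, and at 20.5% and 19.7% in the other. Slc40a1, the iron exporter ferroportin, averaged 10.9 ± 2.56 FPKM in 8w BM and 2.79 ± 0.113 FPKM in E16.5 FL (log2 difference 1.63, adjusted p = 7.48e-07). Macrophages also express Slc40a1, and 11 of the 12 macrophage markers were higher in 8w BM than in E16.5 FL, beside 20.5% of all genes. That count is a description, as 1 of the 12, Spic, passed the filter only through 8w BM.

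Alas2 encodes the erythroid form of the first enzyme of haem synthesis and stayed near the detection limit. Its highest value in any library was 1.76 FPKM. It was at 0.621, 1.04 and 1.76 FPKM in E12.5 PL, at 0.608, 0.683 and 0.0767 FPKM in E12.5 FL and at 0.72, 0.688 and 0.813 FPKM in E16.5 FL, and group means in the marrow lay between 0.118 FPKM in 8w BM and 0.34 FPKM in 4w BM. With no filter, which put 20038 genes into the test, Alas2 was lower in Perinatal BM (log2 difference -0.55 ± 0.16, adjusted p = 0.0174), in 1w BM (-0.59 ± 0.16, adjusted p = 0.0141) and in 8w BM (-0.64 ± 0.16, adjusted p = 0.00399) than in E16.5 FL. It was higher in E12.5 PL than in E12.5 FL in the same fit (0.55 ± 0.16, adjusted p = 0.00497), although the libraries overlapped.

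Alas1, the housekeeping form of that enzyme, was far more abundant and went the other way in 1w and 8w BM. It was at 17.2, 17.3 and 15.1 FPKM in E16.5 FL, and averaged 60.9 ± 17.1 FPKM in 1w BM and 37 ± 2.51 FPKM in 8w BM. The log2 difference from E16.5 FL was 1.79 in 1w BM (adjusted p = 6.53e-07) and 1.12 in 8w BM (adjusted p = 7.03e-05), and 8w BM was below 1w BM (-0.67, adjusted p = 0.0164). Of the 12 haem synthesis genes tested, 5 were higher and 0 lower in 8w BM against E16.5 FL (median 0.14), beside 20.5% and 19.7% of all genes, and leaving out libraries in turn gave 2 to 5 higher. In E12.5 PL against E12.5 FL, 10 were higher and 1 lower (median 0.62, beside 0.06), where 41% and 33.2% of all genes were called, with Alad at 15.9 ± 2.41 FPKM in E12.5 PL and 6.29 ± 0.454 FPKM in E12.5 FL (adjusted p = 2.84e-10).

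Slc4a1 encodes band 3, the chloride and bicarbonate exchanger and main anchor of the red cell membrane skeleton. It was listed at 0 in all 3 E12.5 PL libraries, and was at 0.95, 1.17 and 0.285 FPKM in E12.5 FL and at 2.74, 3.34 and 1.59 FPKM in E16.5 FL. E16.5 FL was above E12.5 FL without overlap, by 0.98 ± 0.16 (adjusted p = 8.36e-05). In the marrow its highest value in any library was 0.494 FPKM, in 4w BM library 3. Adjusted for depth and divided by the smallest value above 0, Slc4a1 stood at 70, 136 and 148 such units in E16.5 FL, and at 0, 1.01 and 3.06 units in Perinatal BM and 0, 1 and 13.3 units in 8w BM. Slc4a1 was lower than in E16.5 FL without overlap in 1w BM (log2 difference -1.73 ± 0.16, adjusted p = 1.1e-07) and in 8w BM (-1.68 ± 0.16, adjusted p = 2.94e-08). Slc4a1 entered these tests only through E16.5 FL, the group where it is high, and with no filter the adjusted p was 4.07e-07 in 1w BM and 1e-07 in 8w BM. Its marrow values rest on few reads, and differences among the marrow groups were not called (adjusted p = 0.309 in the F-test over 1w to 8w BM).

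The red cell membrane list has 17 tested genes, Slc4a1 included. Of these, 12 were higher and 0 lower in E16.5 FL against E12.5 FL (median 0.98, beside 0.01 over all genes tested), where 19% and 15.6% of all genes were called. Slc4a1 and Sptb passed the filter only through E16.5 FL, and of the other 15 genes 10 were higher. Other lists moved in the same comparison: 6 of 12 macrophage markers were higher (summed level 58.9 to 64.8 FPKM in E16.5 FL and 34.7 to 39.2 FPKM in E12.5 FL), as were 6 of 11 basophil and eosinophil markers and 8 of 13 HSPC markers, and 17 of 20 proliferation genes were lower. Their part in the membrane genes was not tested. The beta spectrin gene Sptb, given as a description only, averaged 2.13 ± 0.652 FPKM in E16.5 FL and 0.217 ± 0.0538 FPKM in E12.5 FL. The beta adducin gene Add2 averaged 3.52 ± 1.25 FPKM in E16.5 FL and 0.38 ± 0.0799 FPKM in E12.5 FL (adjusted p = 4.71e-06), and the ankyrin gene Ank1 averaged 2.29 ± 0.51 FPKM in E16.5 FL and 0.244 ± 0.082 FPKM in E12.5 FL (adjusted p = 6.11e-06). The ammonia channel gene Rhag averaged 6.14 ± 1.78 FPKM in E16.5 FL and 0.889 ± 0.176 FPKM in E12.5 FL (adjusted p = 6.4e-06).

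In Perinatal BM against E16.5 FL, 0 of these 17 genes were higher and 10 were lower (median -0.56, beside 0.00), where 14.2% of all genes were called in each direction, and 8 of the 15 genes other than Slc4a1 and Sptb were lower. Sptb (0.819 ± 0.304 FPKM in Perinatal BM), Add2 (1 ± 0.262 FPKM) and Dmtn, the dematin gene (0.0723 ± 0.0202 FPKM, against 0.653 ± 0.263 FPKM in E16.5 FL), were among the lower ones. In 8w BM against E16.5 FL, 3 genes of the list were higher and 7 lower (median -0.35), beside 20.5% and 19.7% of all genes, so the share that was higher was near that of all genes. Aqp1 averaged 45.5 ± 18.7 FPKM in 8w BM and 10.8 ± 1.53 FPKM in E16.5 FL (adjusted p = 7.47e-06), and the adhesion molecule gene Icam4 averaged 10.2 ± 1.86 FPKM in 8w BM and 2.34 ± 0.455 FPKM in E16.5 FL (adjusted p = 3.91e-05). The glucose transporter gene Slc2a1, which many cells express, was lower at 13.2 ± 1.75 FPKM in 8w BM and 49.7 ± 1.99 FPKM in E16.5 FL (adjusted p = 1.18e-10).

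Late erythroid genes gave a mixed picture. Of the 16 tested, 5 were higher and 0 lower in E16.5 FL against E12.5 FL (median 0.25, beside 0.01), where 19% and 15.6% of all genes were called, among them the tetraspanin gene Tspan33 at 7.45 ± 1.47 FPKM in E16.5 FL and 1.58 ± 0.199 FPKM in E12.5 FL (adjusted p = 3.62e-07). In 8w BM against E16.5 FL, 5 were higher and 5 lower, beside 20.5% and 19.7% of all genes (median -0.06, beside 0.00). Trim58, which encodes a ubiquitin ligase of late erythroblasts, averaged 5.94 ± 0.607 FPKM in 8w BM and 1.41 ± 0.326 FPKM in E16.5 FL (adjusted p = 5.42e-08). Prdx2, an abundant red cell peroxiredoxin, averaged 238 ± 5.74 FPKM in 8w BM and 322 ± 23.7 FPKM in E16.5 FL (adjusted p = 0.000981). Of the 10 genes of erythropoietin signalling, 4 were higher and 1 lower in the same comparison (median 0.26), and the receptor gene Epor, at 7.21 ± 1.86 FPKM in 8w BM and 5.12 ± 1.17 FPKM in E16.5 FL, was not called (adjusted p = 0.113).

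Hbb-bh1 encodes an embryonic beta-like globin of the mouse, made mainly by primitive red cells. It was at 2.11, 0 and 0.57 FPKM in E12.5 PL, at 1.39, 3.91 and 0 FPKM in E12.5 FL and at 0, 0 and 0.261 FPKM in E16.5 FL. In the marrow it was listed at 0 in all libraries except 6w BM library 3, at 0.223 FPKM. Adjusted for depth, that value and the one in E16.5 FL library 3 were 1.03 and 1 times the smallest value above 0, while E12.5 FL library 2 stood at 24.9 times and E12.5 PL library 1 at 10.8 times that value. Hbb-bh1 was therefore detected beyond the smallest step in 4 of the 27 libraries, all from E12.5.

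The difference of Hbb-bh1 in E16.5 FL against E12.5 FL was called (log2 difference -1.07 ± 0.36, adjusted p = 0.0229), but E12.5 FL library 3 was at 0 and the groups overlapped. Hbb-bh1 entered the test only through the E12.5 groups, where it is high, and with no filter the adjusted p was 0.0411. Without E12.5 FL library 2 it was -0.52 (adjusted p = 0.225). The call was also lost without E12.5 FL library 1 (adjusted p = 0.0618), without E16.5 FL library 1 (adjusted p = 0.0678) or 2 (adjusted p = 0.0638), in a fit of those 6 libraries alone (adjusted p = 0.184) and with a pseudocount of 0.1 (adjusted p = 0.0501). E12.5 PL and E12.5 FL were not called different (-0.42 ± 0.36, adjusted p = 0.293), and were called without E12.5 PL library 1 (-0.86, adjusted p = 0.0326) or without E12.5 FL library 3 (-1.01, adjusted p = 0.00362).

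The other embryonic globins, Hbb-y (beta-like) and Hba-x (alpha-like), ranked the 3 E12.5 FL libraries in the same order as Hbb-bh1, and in E12.5 PL library 2 was the lowest for each of them. Summed with Hbb-bh1 they gave 24.2, 2.41 and 26.3 FPKM in E12.5 PL, 13.7, 39.2 and 0.546 FPKM in E12.5 FL and 0.259, 4.51 and 3.16 FPKM in E16.5 FL. The sum was 0 in each library of 1w, 3w, 4w and 8w BM. The embryonic sums of E12.5 PL, E12.5 FL and E16.5 FL overlapped, so no order of these groups is given.

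Adult globins followed another course. The summed adult beta globins (Hbb-b1, Hbb-b2 and Hbb-bs) were 16, 6.23 and 6.55 FPKM in E12.5 PL, 66.3, 84.1 and 40.5 FPKM in E12.5 FL, 188, 148 and 60.8 FPKM in E16.5 FL, 69.6, 78.4 and 70.3 FPKM in 1w BM and 16.3, 14 and 9.71 FPKM in 8w BM. These genes are near-identical copies, so the split of reads among them is uncertain. Hbb-b2, which made up the larger share of the sum in 1w and 8w BM, averaged 8.06 ± 0.685 FPKM in 8w BM and 70.7 ± 5.89 FPKM in 1w BM (log2 difference -2.98 ± 0.45, adjusted p = 4.76e-05). It was also lower in 8w BM than in E16.5 FL, at 110 ± 65.9 FPKM (-3.36 ± 0.45, adjusted p = 2.83e-06). Between 1w and 8w BM, Hbb-b2 thus fell while Car1 rose. Gata1 was called higher in 8w BM too, but that call was lost in some alternatives. Of the 7 globin genes tested, 0 were higher and 1 was lower in 8w BM against 1w BM, beside 10.3% and 8.39% of all genes. In E12.5 FL library 3 all 3 globin sums, embryonic, adult beta and adult alpha (3.48 FPKM, against 17.3 and 23.4 FPKM in the other libraries of that group), were the lowest of the group, as were Slc4a1 and Alas2.

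**Figure D5:**
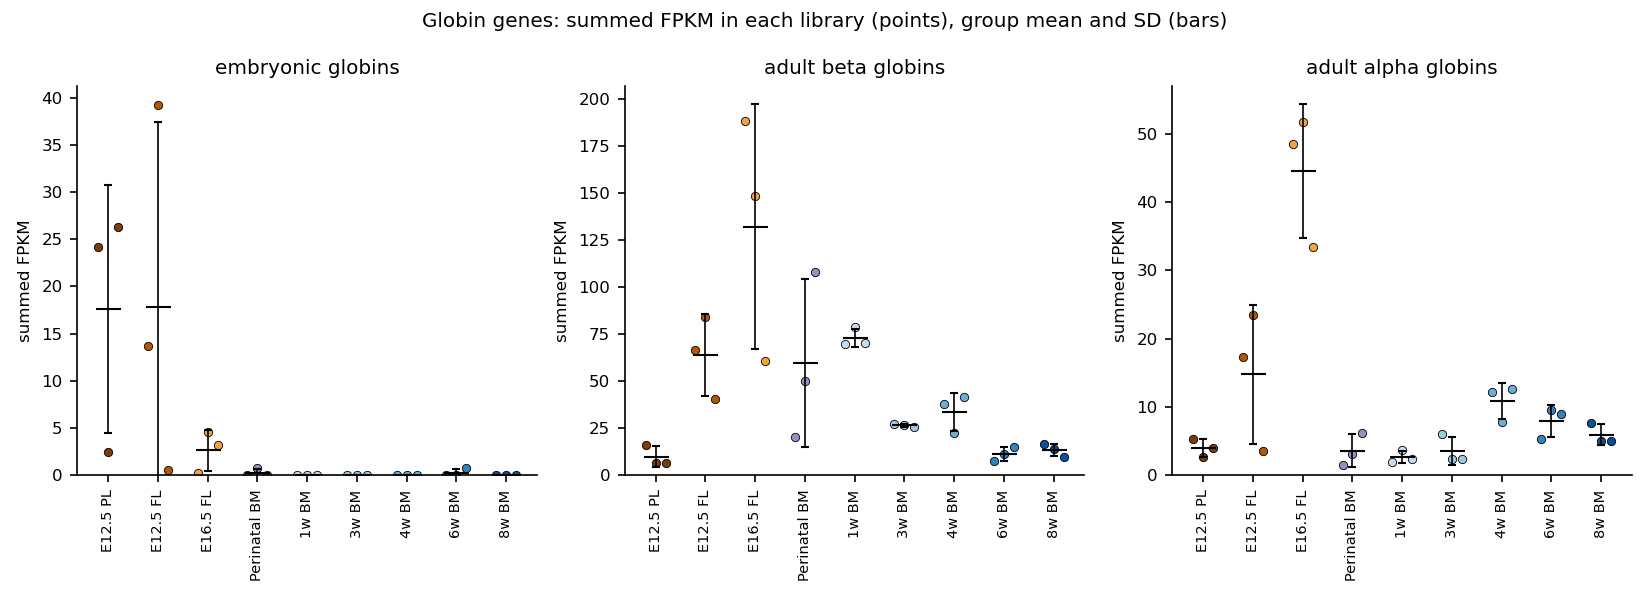
Summed FPKM of embryonic globins (Hbb-bh1, Hbb-y and Hba-x), adult beta globins and adult alpha globins in each library, with group mean and SD, on linear axes from 0 that differ between panels and cut off SD bars below 0. The embryonic sum is at most 0.715 FPKM in any marrow library, and the adult beta sum averages 132 FPKM in E16.5 FL and 13.3 FPKM in 8w BM.

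For each member, the 3 genes most like it were found by Pearson correlation of log2(FPKM + 1) over the 24 libraries outside E12.5 PL, among 9277 genes whose highest group mean reached 5 FPKM or more. The libraries share their groups, so r describes mainly the course of the group means, and no p is given. Nearest to Car1 were Sdsl (r = 0.983), Klhl5 (0.980) and Hk3 (0.980). Sdsl averaged 22.6 ± 2.84 FPKM in 8w BM and 0.432 ± 0.201 FPKM in E16.5 FL, and the hexokinase gene Hk3 averaged 47.1 ± 6.08 FPKM in 8w BM and 2.27 ± 0.876 FPKM in E16.5 FL.

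Nearest to Gata1 were Lman2 (0.922), Optn (0.914) and Mfsd2b (0.911), and nearest to Klf1 were Atp1b2 (0.924), Sphk1 (0.892) and Aqp1 (0.887). Mfsd2b encodes a transporter of sphingosine 1-phosphate in red cells and platelets, and Sphk1 encodes a kinase that makes that lipid. Mfsd2b averaged 35 ± 7.79 FPKM in 8w BM and 6.58 ± 0.791 FPKM in E16.5 FL. Nearest to Hemgn were Epb4.1l4b (0.936), Padi4 (0.930) and Dpf2 (0.928). Padi4, an enzyme that converts arginine to citrulline in proteins, averaged 5.47 ± 0.899 FPKM in E16.5 FL and 0.466 ± 0.119 FPKM in E12.5 FL.

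The neighbours of the other members were less like them, apart from those of Car2 and Hbb-bh1. Nearest to Car2 were Unc13d (0.918), Aplp2 (0.910) and Hdac11 (0.910), and nearest to Slc4a1 were Scd2 (0.883), Abcg1 (0.853) and Atg14 (0.837). Tfrc was nearest to Ifi30 (0.851), Impdh1 (0.850) and Atp6v0c (0.835), Alas2 to Pak1 (0.786), Scd2 (0.773) and Emcn (0.755), and Gfi1b to Upf1 (0.776), Med17 (0.765) and Pdp2 (0.755). Hbb-bh1 was nearest to Snora64 (0.945), Mir703 (0.939) and Hbb-y (0.934). Snora64 and Mir703 are very short RNAs, listed at 0 in E16.5 FL and at means of 76.4 and 825 FPKM in E12.5 FL.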

How the data were processed

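Per the labels' protocols, RNA was extracted with Tri Pure and sequencing libraries came from an Illumina TruSeq kit. STAR 2.7, HTSeq 0.6.1p1, Trim Galore, FastQC and the GRCm38 build are named in the submitters' processing notes. The authors deposited 1 table of FPKM for 27 libraries, and every column was used. How FPKM was computed, with which annotation and with what scaling of libraries is not given in the sources used here. Read totals are unknown. A relative depth was estimated from the steps between low values of 1127 genes, of which 81% of values fell within 0.1 of a whole multiple.

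From the deposited FPKM, log2(FPKM + 1) was fitted with limma 3.58.1 in R 4.3.3 (lmFit, eBayes with trend), with a mean for each of 9 groups over 27 libraries. The 13350 genes that reached 1 FPKM in 3 or more libraries were tested, with Benjamini-Hochberg adjustment over all of them within a comparison and a threshold of 0.05. Each log2 difference is the group named first minus the other. On simulated data in the design of E16.5 FL against E12.5 FL, with 13350 genes, 61% of genes changed by 0.5 and 100% of those changed by 1 (log2) were called, with 6 unchanged genes called. Results were recomputed with each library left out, with a replicate block, without E12.5 PL, on the compared groups alone, with median-of-ratios scaling, with the filter removed or set at 5 FPKM, and with 0.1 as the pseudocount. Counts of the gene lists under these alternatives were added after seeing the data. The members and lists were chosen with earlier results of these data known. All members were named in each group. Each gene list could name up to 4 genes with the smallest adjusted p in a comparison, and any gene of the globin, carbonic anhydrase, haem synthesis or regulator lists. The 3 genes most like each member were named too. Ermap, Icam4, Prdx2, Epor, Elf5 and Prl3d1, the mast cell markers listed at 0 and the values of Aqp1 and of mast cell markers by library were chosen after their values were seen. Tests were two-sided. Python 3.11.15 with numpy 2.4.6, pandas 2.3.3 and matplotlib 3.10.9 was used for group values, promoter matches and figures.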

Additional observations from a re-analysis of the deposited data

How the results depend on the processing

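Over the alternatives other than leaving out a library, 450 of 472 member results kept their direction and their side of the threshold, 13 lost their call and 9 gained one. With each library left out in turn, 401 of 432 did, 28 lost their call and 3 gained one, and 0 were reversed in either set. With a fit of only the groups compared, counts over all genes were over 1.5 times lower in a pair of comparisons: in Perinatal BM against E16.5 FL it called 1118 genes higher and 1027 lower (1896 and 1890 in the fit of all 27 libraries), and in 1w BM against Perinatal BM 367 higher and 532 lower (1148 and 1197). It uses fewer libraries to estimate the spread.

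For the 9 members tested, the 2 lower in E16.5 FL against E12.5 FL became 0 with a pseudocount of 0.1 and 1 with no filter, with a filter at 5 FPKM, in a fit of only those groups and without E12.5 PL. The 5 higher in 8w BM against E16.5 FL became 3 with a pseudocount of 0.1 and in the fit of only those groups, and the 1 lower, in 8w BM and in 1w BM against E16.5 FL, became 2 with no filter, which admits Alas2, and 0 with the filter at 5 FPKM, which removes Slc4a1. The 2 higher in 1w BM against Perinatal BM became 1 with a pseudocount of 0.1, with no filter and in the fit of only those groups, as did the 2 higher in 8w BM against 1w BM in that fit. The 4 called over 1w to 8w BM became 2 with no filter. Where a cause is not given here, it was not tested.

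Leaving out libraries in turn gave 0 to 1 members lower in E16.5 FL against E12.5 FL, 1 to 2 higher in Perinatal BM against E16.5 FL, 3 to 5 higher in 8w BM against E16.5 FL, 1 to 2 higher in 1w BM against Perinatal BM, 1 to 3 higher in 8w BM against 1w BM and 2 to 4 called over 1w to 8w BM. Over all genes it gave 672 to 1210 higher and 790 to 1213 lower in 1w BM against Perinatal BM, and 408 to 583 higher and 327 to 418 lower in 3w BM against 1w BM (759 and 635 with all libraries).

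The replicate numbers did not pair the libraries: residuals of same-numbered libraries correlated at -0.205 to 0.227, and 8 of 27 libraries were closest to one of their own number. A replicate block changed 1 of 72 member results, Car2 in Perinatal BM against E16.5 FL (-0.29, adjusted p = 0.0426). The red cell membrane count in E16.5 FL against E12.5 FL was 5 to 14 higher over the settings, and lowest with the filter at 5 FPKM, which leaves fewer genes. Values of Slc4a1, Alas2 and Hbb-bh1 below 1 FPKM rest on few reads.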
